A study of Drosophila melanogaster with 30 samples.

Results

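The BUT+ lines were compared with the control lines in 12 of the 30 libraries of the series, 6 from each treatment, chosen by the treatment named in their labels. Each treatment had 3 replicate lines, and each line gave 2 libraries made from pools of whole heads of young adult female *Drosophila melanogaster*. The BUT+ lines descended from flies that, in a T-maze over many generations, moved to the arm holding 2,3-butanedione, a volatile diketone of fermenting fruit. The control lines were bred from the same outbred population, an intercross of inbred Genetic Reference Panel lines, and passed through the maze with no odor, so that their parents were taken without regard to choice. The other 18 libraries came from lines selected away from the same odor (BUT-) and toward or away from cyclohexanone (CYC+ and CYC-). They entered the fit, and their values are given only beside a few genes. Of the 17471 genes listed, 9240 had at least 1 CPM, the count scaled to a fixed library total, in at least 15 of the 30 libraries and were tested.

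Odors are detected in the antenna and maxillary palp by neurons that carry odorant receptors, which work together with the co-receptor Orco, or ionotropic receptors, which work with co-receptors such as Ir8a and Ir25a. Odorant-binding proteins are secreted by support cells around these neurons, and cytochrome P450s, glutathione S-transferases and esterases in the same tissue can modify odorants and other foreign chemicals. A whole head also holds the brain, the eyes, muscle and a layer of fat body, so transcripts of the olfactory neurons are a small part of the RNA. The spread between single flies cannot be seen in pools of heads, and in such bulk samples fewer cells of a type and less RNA per cell cannot be told apart.

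The BUT+ libraries held between 27846591 and 32105862 counts and the control libraries between 21194086 and 38248863. Transcripts of the mitochondrial genome took 5.25% to 7.21% of counts in BUT+ and 6.54% to 9.76% in the control. The 10 most abundant genes of a library took 18.3% to 19.6% in BUT+ and 16.0% to 18.5% in the control. On the first principal component of the 12 libraries, which held 27.6% of the variance, all 6 BUT+ libraries lay on one side and all 6 control libraries on the other. The second component held 14.8% and set BUT+ line 1 apart from BUT+ lines 2 and 3. Genes that mark the head were read in every library, with summed levels of 3577 to 4415 CPM in BUT+ and 3514 to 4727 CPM in the control for 13 neuronal markers. Of 23 listed markers of ovary, testis and accessory gland, none passed the filter, which cannot show transcripts carried into a few libraries. The sum over 13 ovary markers was 1.58 to 28.5 CPM in BUT+ and 1.79 to 12.4 CPM in the control. Its line means were 15.1, 6.39 and 2.42 CPM in BUT+ lines 1, 2 and 3 and 2.85, 2.17 and 7.33 CPM in the control lines.

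With lines pooled, 141 genes were higher and 135 lower in BUT+ than in control at an adjusted p under 0.1 by the quasi-likelihood test of edgeR, with Benjamini-Hochberg adjusted p-values over all genes tested. That is 2.99% of the genes tested, 1.53% of them higher and 1.46% lower. Most differences were small. The median size among the called genes was 0.37 on the log2 scale, 177 of the 276 were under 0.5, and 25 reached 1, with 6 of those higher and 19 lower in BUT+. The CPM means of the 3 BUT+ lines lay outside the range of the 3 control lines for 261 of the called genes, while over all genes tested this held for 17.3%. In 134 of the called genes all 6 BUT+ libraries lay beyond all 6 control libraries, while over all genes tested this held for 238. The calls were made from these same values. The test treats both libraries of a line as separate samples although selection was applied to whole lines, and with the libraries of each line summed 10 genes were called. The count was 141, 121 and 170 without BUT+ line 1, 2 and 3, and 65, 409 and 179 without control line 1, 2 and 3.

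The genes higher in BUT+ with the smallest adjusted p were of several functions. They included a signaling adaptor, a cell cycle kinase, a glycogen enzyme, a subunit of the enzyme that activates the ubiquitin-like protein Nedd8, and genes known only by number. *Traf4*, an adaptor of the TRAF family that acts in Jun kinase signaling (chromosome 2L, 4361925 to 4380716, in the Release 6 genome), was read at 15.1, 17.1 and 19.7 CPM in BUT+ and 8.91, 10.6 and 12.8 CPM in the control as the lowest, median and highest library. Every BUT+ library thus lay above every control library, and the log2 fold change was 0.70 (standard error 0.07, edgeR adjusted p = 1.05e-06). *CG32706* on the X chromosome was near the limit of the filter, with line means of 1.75, 1.497 and 1.51 CPM in BUT+ and 0.647, 0.475 and 0.686 CPM in the control. It was 1.37 higher on the log2 scale in BUT+ (standard error 0.20, edgeR adjusted p = 0.000219), without overlap of libraries. *Cdk4*, the kinase partner of cyclin D, was at 20.3, 21.8 and 20.5 CPM in the 3 BUT+ lines and 15.3, 16.3 and 14.8 CPM in the control lines. The 6 BUT+ libraries lay within a narrow band above all control libraries (log2 fold change 0.43, standard error 0.07, edgeR adjusted p = 0.000634).

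*AGBE*, the glycogen branching enzyme, was at 178, 183 and 199 CPM in the BUT+ lines and 118, 144 and 131 CPM in the control lines, a log2 fold change of 0.51 (standard error 0.09, edgeR adjusted p = 0.00483). *APP-BP1*, which encodes the Nedd8-activating subunit, was at 19.2, 17.4 and 15.2 CPM in BUT+ and 11.8, 11.3 and 12.7 CPM in the control (log2 fold change 0.53, standard error 0.10, edgeR adjusted p = 0.00388). *Tmx3*, a membrane protein with a thioredoxin domain, was at 81.0, 72.4 and 85.4 CPM in BUT+ and 57.8, 57.2 and 63.2 CPM in the control (log2 fold change 0.42, standard error 0.08, edgeR adjusted p = 0.00388). In all 3 genes the lowest BUT+ library exceeded the highest control library. The same held for *CG30203*, whose log2 fold change was 0.83 (edgeR adjusted p = 0.00154), and for *CG13325*, at 0.90 (edgeR adjusted p = 0.00219). These 8 genes were called in each of the 6 fits that left out 1 line.

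**Figure D1:**
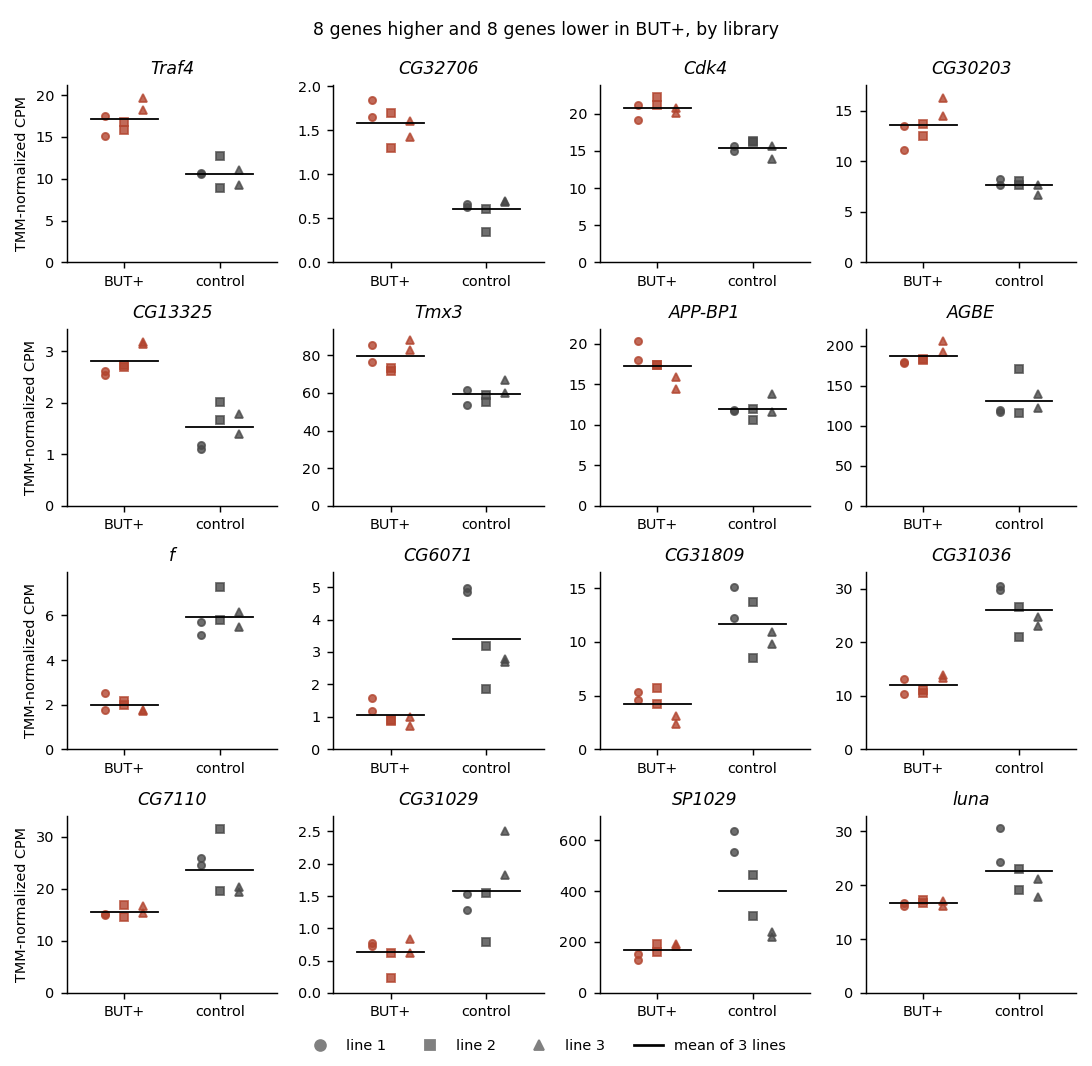
TMM-normalized CPM (y axis, linear from 0) of genes with the smallest adjusted p, in the upper rows higher and in the lower rows lower in BUT+ than in control. Each point is 1 library, its shape gives the line, and the black bar is the mean of 3 lines, with BUT+ left of control. The BUT+ points of *Traf4* sit between 15.1 and 19.7 CPM, all above the control points, and those of *f* between 1.72 and 2.53 CPM, all below them.

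Among the genes lower in BUT+, *f* (forked), which bundles actin in growing bristles, had the smallest adjusted p of the comparison. Its lowest, median and highest libraries were at 1.72, 1.88 and 2.53 CPM in BUT+ and 5.12, 5.76 and 7.28 CPM in the control. No library of either treatment came near the other, and the log2 fold change was -1.58 (standard error 0.16, edgeR adjusted p = 6.16e-07). The gene spans 17232942 to 17280964 of the X chromosome and overlaps 4 genes on the opposite strand. Whether strand was used in counting is not given in the sources used here, so reads of such partners may be included. Among the other named genes, *APP-BP1*, *Adh*, *CG15096*, *CG30197*, *CG7110*, *Cdk4*, *DIP-alpha*, *DIP-epsilon*, *Est-6*, *Gr64f*, *Prosbeta5*, *Sclp*, *Ssk*, *Tmx3*, *Traf4*, *Ugt36A1*, *alrm*, *bw*, *luna* and *st* also overlap a gene in the annotation. *CG6071* was at 1.38, 0.884 and 0.867 CPM in the 3 BUT+ lines and 4.93, 2.53 and 2.74 CPM in the control lines, with all 6 libraries of BUT+ below the control (log2 fold change -1.70, standard error 0.21, edgeR adjusted p = 2.42e-05). *CG31036* was at 11.8, 10.8 and 13.7 CPM in BUT+ and 30.1, 23.8 and 23.9 CPM in the control, and the treatments again lay apart (log2 fold change -1.10, standard error 0.16, edgeR adjusted p = 0.000266).

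*SP1029*, an aminopeptidase of the cell surface, was the most abundant gene among those lower in BUT+ with the smallest adjusted p. It was at 139, 176 and 189 CPM in the BUT+ lines and 595, 383 and 229 CPM in the control lines. The control lines were far apart from one another, and the highest BUT+ library, at 193 CPM, stayed below the lowest control library, at 220 CPM (log2 fold change -1.26, standard error 0.23, edgeR adjusted p = 0.00483). *luna*, a zinc finger transcription factor of the Krüppel-like family, was nearly level in BUT+ at 16.5, 16.9 and 16.6 CPM, against 27.5, 21.0 and 19.5 CPM in the control (log2 fold change -0.44, standard error 0.08, edgeR adjusted p = 0.00565). *CG31809* was 1.48 lower on the log2 scale, at 4.97, 4.96 and 2.70 CPM in BUT+ and 13.6, 11.1 and 10.4 CPM in the control (edgeR adjusted p = 0.000168). *CG7110* fell by 0.60 (edgeR adjusted p = 0.00154) and *CG31029*, at under 1 CPM in BUT+, fell by 1.33 (edgeR adjusted p = 0.00388). All 8 of these genes were called in each fit that left out a line.

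Among the largest differences, some genes varied widely between lines. *Poc1*, a centriole protein, was at 1.07, 1.43 and 1.03 CPM in BUT+ and 31.2, 14.9 and 3.52 CPM in control lines 1, 2 and 3. BUT+ was low and even, and the control lines were far apart. The log2 fold change was -3.82 (standard error 0.78, edgeR adjusted p = 0.0109), and without control line 1 the gene was not called (-2.99, edgeR adjusted p = 0.103). *CG43402* was at 0.711, 24.9 and 4.78 CPM in BUT+ and 27.3, 48.2 and 61.5 CPM in the control (log2 fold change -2.17, standard error 0.65, edgeR adjusted p = 0.0863). It kept its call only in the fit without BUT+ line 2, and in the other fits that left out a line its log2 fold change lay between -2.44 and -1.62 (edgeR adjusted p = 0.121 to 0.27).

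At the other end, *Lsp1beta*, a storage protein of the larval fat body, was at 417 and 175 CPM in the libraries of BUT+ line 1, 52.4 and 76.5 CPM in line 2, and 43.4 and 37.2 CPM in line 3, against 2.71 to 34.6 CPM in the 6 control libraries. Every BUT+ library was above the control and line 1 was far above the rest (log2 fold change 3.01, standard error 0.91, edgeR adjusted p = 0.0944). It was called without BUT+ line 3 and in no other fit that left out a line, where the log2 fold change was 1.66 to 3.36 (edgeR adjusted p = 0.122 to 0.561). *rho-6*, of the rhomboid family of membrane proteases, had 2.84, 3.65 and 3.81 CPM in BUT+ and 0.703, 1.41 and 1.53 CPM in the control, with no overlap of libraries (log2 fold change 1.51, standard error 0.30, edgeR adjusted p = 0.00786). *CG13071* was at 2.51, 1.52 and 1.56 CPM in BUT+ and 1.36, 0.859 and 0.436 CPM in the control (log2 fold change 1.09, standard error 0.27, edgeR adjusted p = 0.0356). Its call was lost without BUT+ line 1 and without control line 3, at 0.76 and 0.82 on the log2 scale.

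Families were described by how many members were called and by their median, since each list was small beside the 9240 genes tested. The median log2 fold change over all genes tested was -0.01, and 4240 of them were above 0. The plot of list members by log2 fold change shows 15 of these lists.

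**Figure D2:**
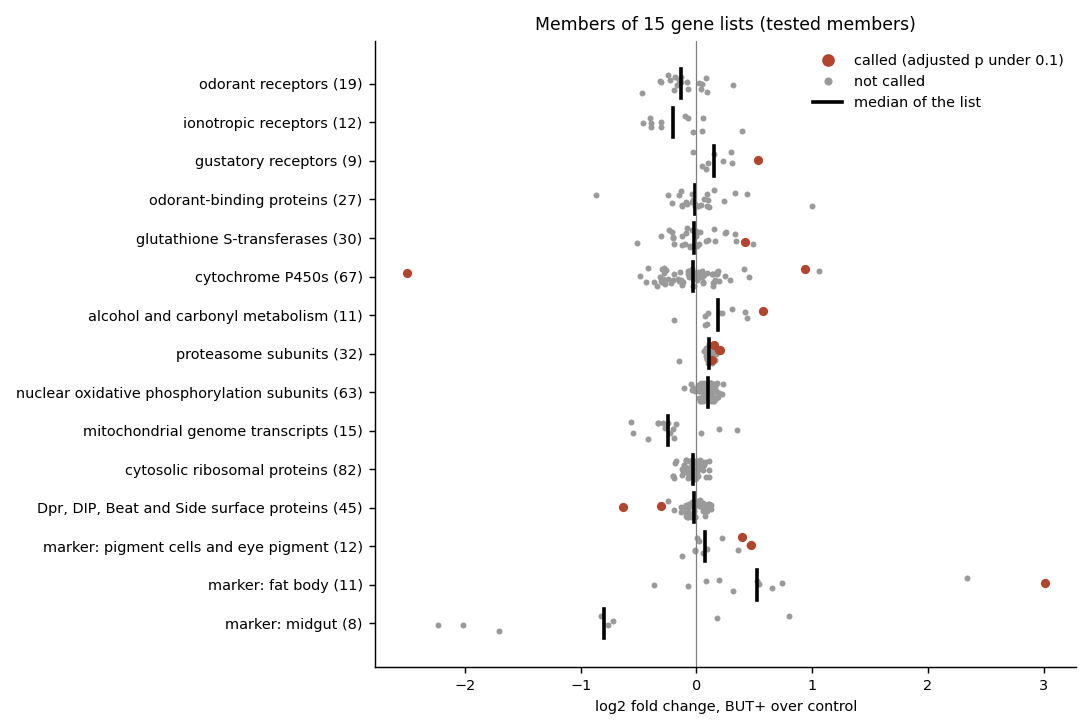
Log2 fold change, BUT+ over control (x axis), of every tested member of 15 gene lists (rows, with the number of tested members). Red points were called at an adjusted p under 0.1 and black bars are list medians. The 32 proteasome subunits crowd just right of 0 around a median of 0.11, while the odorant and ionotropic receptors hold no red point.

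Among receptors of odors no gene was called by edgeR's quasi-likelihood test with lines pooled over all libraries, and none by DESeq2. Set singly against the control lines, BUT+ line 1 had 1 odorant receptor called higher and 1 lower, and 2 ionotropic receptors lower. Line 3 had 1 ionotropic receptor called lower, and line 2 had no call in either list. Over all genes tested, 5.79%, 2.11% and 3.07% were called in lines 1, 2 and 3. Of 60 listed odorant receptor genes 19 passed the filter, with a median log2 fold change of -0.13, 6 above 0 and 1 at an unadjusted p under 0.05. *Orco*, the co-receptor, was at 71.6, 82.8 and 91.1 CPM in BUT+ and 71.5, 80.9 and 79.7 CPM in the control, and the lines overlapped (log2 fold change 0.08, standard error 0.07, edgeR adjusted p = 0.685). *Or92a*, which encodes a receptor for 2,3-butanedione, had 4.43, 4.89 and 5.12 CPM in the BUT+ lines and 5.63, 5.50 and 5.26 CPM in the control lines. The BUT+ lines were the lower ones without overlap of line means, although single libraries overlapped, and the difference of -0.19 was near its standard error of 0.14 (edgeR adjusted p = 0.569). *Gr21a* and *Gr63a*, which together form the receptor for carbon dioxide, had log2 fold changes of 0.15 and 0.23 with overlapping libraries (edgeR adjusted p = 0.819 and 0.599). *Or22b* was lower in BUT+ line 1 alone against the control lines (-0.99, edgeR adjusted p = 0.00425), with values of -0.16 and -0.25 in lines 2 and 3 (edgeR adjusted p = 0.743 and 0.703).

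Of 66 ionotropic receptor genes 12 were tested and 9 had a log2 fold change below 0, with a median of -0.20 and 4 at an unadjusted p under 0.05. In 6 of the 12, or 50%, the line means of BUT+ and control did not overlap, beside 17.3% of all genes tested. The co-receptor *Ir8a* was at 4.46, 4.24 and 3.80 CPM in BUT+ and 5.83, 5.26 and 5.24 CPM in the control (log2 fold change -0.39, edgeR adjusted p = 0.136). *Ir31a* had -0.39 (edgeR adjusted p = 0.167), *Ir75a* -0.46 (edgeR adjusted p = 0.257), and the other co-receptor, *Ir25a*, -0.07 (edgeR adjusted p = 0.844). Without control line 3, 1 ionotropic receptor was called lower, and without control line 1, 1 odorant receptor. Of 51 odorant-binding protein genes 27 were tested, with 12 above 0, a median of -0.01 and 2 at an unadjusted p under 0.05. None was called by DESeq2 or by edgeR with lines pooled over all libraries. In BUT+ line 1 against the control lines 2 were called lower, in a comparison that called 5.79% of all genes tested. A fit of only the 12 libraries compared, which called 589 genes in all, called 2 odorant-binding proteins higher and 1 ionotropic receptor lower. Among 9 tested gustatory receptors 8 had a log2 fold change above 0, with a median of 0.15. The 1 called member made 11.1% of this short list, beside 2.99% of all genes tested. *Gr64f*, a co-receptor for sugars, was called, at 2.60, 2.64 and 3.12 CPM in BUT+ and 2.21, 1.78 and 1.81 CPM in the control (log2 fold change 0.53, standard error 0.14, edgeR adjusted p = 0.0456). Its 6 BUT+ libraries were above the 6 control libraries. The call was lost without BUT+ line 3 and without control lines 2 and 3, at 0.44 to 0.49 on the log2 scale (edgeR adjusted p = 0.123 to 0.173).

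Of 67 tested cytochrome P450 genes, 1 was higher and 1 lower in BUT+, and the median was -0.03. That is 2.99% of the list called, the same share as over all genes tested. *Cyp6a23* (chromosome 2R, 14875829 to 14877654) was at 19.2, 22.5 and 29.2 CPM in the 3 BUT+ lines and 96.8, 136 and 168 CPM in the control lines, so that every control library, from 91.0 CPM upward, exceeded the highest BUT+ library at 33.1 CPM. The log2 fold change was -2.50 (standard error 0.52, edgeR adjusted p = 0.0116), with -2.76, -2.54 and -2.16 in lines 1, 2 and 3 against the same control. *Cyp6a17*, a close relative in the same cluster, was at 93.2, 105 and 98.1 CPM in BUT+ and 111, 96.1 and 79.7 CPM in the control (log2 fold change 0.05, edgeR adjusted p = 0.912). How reads shared by such paralogs were assigned is not given in the sources used here. *Cyp6a20*, a P450 linked to aggression in males, was higher in BUT+ at 100, 71.5 and 124 CPM, against 48.8, 48.6 and 56.6 CPM in the control, without overlap of libraries (log2 fold change 0.94, standard error 0.25, edgeR adjusted p = 0.0541). The call was lost without BUT+ lines 1 and 3 and without control lines 1 and 3, at 0.74 to 1.01 (edgeR adjusted p = 0.105 to 0.227).

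The lines parted at *Cyp6a2*, a P450 known for its part in insecticide resistance. It was at 48.6, 182 and 281 CPM in BUT+ lines 1, 2 and 3 and 83.7, 110 and 51.3 CPM in the control lines. Against the control lines it was lower in line 1 (log2 fold change -0.68, edgeR adjusted p = 0.0817) and higher in lines 2 and 3 (1.23 and 1.85, edgeR adjusted p = 0.00145 and 9.76e-06), and the pooled comparison gave 1.06 with an edgeR adjusted p of 0.218. Of 30 tested glutathione S-transferases 13 had a log2 fold change above 0, with a median of -0.02. The 1 called member made 3.33% of the list, beside 2.99% of all genes tested. *GstS1*, of the sigma class, was called, at 110, 101 and 92.3 CPM in BUT+ and 82.5, 74.9 and 68.7 CPM in the control, and no library overlapped (log2 fold change 0.42, standard error 0.12, edgeR adjusted p = 0.0635). It was called only without BUT+ line 3 among the fits that left out a line; in the others it was 0.36 to 0.49 (edgeR adjusted p = 0.109 to 0.258). Set singly against the control lines, BUT+ line 1 had 5.79% of all genes tested called. In line 1 alone, 3 glutathione S-transferases were higher and 3 lower than in the control lines, among them *GstO3* at 0.60 (edgeR adjusted p = 0.00807) and *GstD3* at -0.69 (edgeR adjusted p = 0.000235). Line 3 gave 0.07 for *GstO3* and 0.27 for *GstD3* (edgeR adjusted p = 0.934 and 0.161).

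Of 11 tested genes of alcohol and carbonyl metabolism 10 had a log2 fold change above 0, with a median of 0.19. In 6, or 54.5%, the line means did not overlap, beside 17.3% of all genes tested. *Adh*, alcohol dehydrogenase, was called, at 10.7, 6.93 and 8.14 CPM in BUT+ and 6.56, 6.59 and 4.27 CPM in the control (log2 fold change 0.57, standard error 0.16, edgeR adjusted p = 0.0737). Single libraries of the treatments overlapped, and the call held only without BUT+ line 2 and without control line 2, with 0.39 to 0.67 in the other fits that left out a line (edgeR adjusted p = 0.119 to 0.408). *Aldh*, an aldehyde dehydrogenase, had 0.19 (edgeR adjusted p = 0.338). *Est-6*, a secreted carboxylesterase, was called among 16 tested esterases, at 572, 701 and 665 CPM in BUT+ and 476, 422 and 466 CPM in the control, without overlap of libraries (log2 fold change 0.51, standard error 0.15, edgeR adjusted p = 0.0823). It was not called in any of the fits that left out a line, at 0.45 to 0.59 (edgeR adjusted p = 0.103 to 0.256). *Ugt36A1* was the lone call among 17 UDP-glycosyltransferases, lower by 0.22 (edgeR adjusted p = 0.0941), and was called only without control line 2 when a line was left out, with -0.26 to -0.16 in the other fits (edgeR adjusted p = 0.126 to 0.343). Among 22 genes of stress and starvation responses, *Prx6c*, a peroxiredoxin, was called, at 23.3, 18.3 and 17.4 CPM in BUT+ and 8.55, 17.1 and 11.8 CPM in the control (log2 fold change 0.66, edgeR adjusted p = 0.0751). The call was lost without BUT+ lines 1 and 2 and without control lines 1 and 3, at 0.45 to 0.72 (edgeR adjusted p = 0.13 to 0.396). The single calls made 9.09% of the alcohol and carbonyl genes and 6.25% of the esterases. They made 5.88% of the UDP-glycosyltransferases and 4.55% of the stress and starvation genes, beside 2.99% of all genes tested.

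Proteasome subunits were the list with the highest number of calls, while the share called was higher in the shorter lists of pigment genes (16.7%) and rhodopsins (14.3%). The proteasome degrades proteins tagged with ubiquitin. Of 32 tested subunits 4 were higher in BUT+ and none was lower, which is 12.5% called beside 2.99% of all genes tested. Of the 32 subunits 31 had a log2 fold change above 0, the exception being *Rpt4R* at -0.15. The median was 0.11, with 0.15, 0.13 and 0.07 in lines 1, 2 and 3 against the same control lines. Line means did not overlap in 22 subunits, or 68.8%, beside 17.3% of all genes tested. *Prosbeta5*, a catalytic subunit of the core particle, was at 88.5, 86.3 and 84.9 CPM in BUT+ and 72.0, 77.4 and 76.7 CPM in the control, and its lowest BUT+ library, at 81.9 CPM, was just above the highest control library, at 80.2 CPM (log2 fold change 0.20, standard error 0.04, edgeR adjusted p = 0.0139). *Prosalpha6*, of the outer ring of the core, was at 54.1, 55.1 and 51.9 CPM in BUT+ and 46.9, 46.7 and 46.9 CPM in the control (log2 fold change 0.20, standard error 0.05, edgeR adjusted p = 0.0563). *Rpn3* and *Rpn1*, of the regulatory particle, had log2 fold changes of 0.15 and 0.14 (edgeR adjusted p = 0.0679 and 0.0757).

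The number of proteasome calls moved with the settings while the direction did not. It was 9 with DESeq2, 6 with another size factor (relative log expression), 2 with no filter on low counts, 1 with limma and line as a random block, and 0 with the libraries of a line summed, and 31 subunits were above 0 each time. Leaving out control line 1 gave 0 calls and control line 2 gave 6. Leaving out BUT+ line 1, BUT+ line 2, BUT+ line 3 and control line 3 gave 1, 1, 3 and 3 calls. *Ubi-p63E*, a polyubiquitin gene singled out after its values were seen, had a log2 fold change of 0.31 (edgeR adjusted p = 0.0339).

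Genes of oxidative phosphorylation were not called in either direction by edgeR's quasi-likelihood test over all libraries. Of 63 tested nuclear genes for oxidative phosphorylation 58 had a log2 fold change above 0, with a median of 0.10. Line means did not overlap in 4, or 6.35%, beside 17.3% of all genes tested. An unadjusted p under 0.05 was found in 8, and DESeq2 called 1. A fit of only the 12 libraries compared, which called 589 genes in all, called 4 of them higher. Of 15 tested transcripts of the mitochondrial genome 3 were above 0, with a median of -0.25. Line means did not overlap in 10, or 66.7%, beside 17.3% of all genes tested, and 8 had an unadjusted p under 0.05. DESeq2, edgeR's likelihood ratio and exact tests and the fit of 12 libraries each called 1 lower. The summed level of the listed mitochondrial transcripts was 54950 to 74960 CPM in BUT+ and 65730 to 97280 CPM in the control. Of 82 tested cytosolic ribosomal proteins 23 were above 0, with a median of -0.03, no call by edgeR or DESeq2 and 0 at an unadjusted p under 0.05. The number above 0 turned with single lines, since 65 were above 0 without control line 1 and 2 without control line 3.

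Of the rhodopsins 1 was called, and of the eye pigment genes 2. *Rh7*, an opsin of clock neurons in the brain and of the eye, was at 23.7, 19.9 and 23.6 CPM in BUT+ and 10.5, 14.7 and 16.2 CPM in the control, with no overlap of libraries (log2 fold change 0.70, standard error 0.13, edgeR adjusted p = 0.00587). It was called among 7 rhodopsins, whose median was -0.02. Of 20 tested genes of phototransduction none was called, with a median of -0.02 and 3 at an unadjusted p under 0.05, while DESeq2, edgeR's likelihood ratio and exact tests and the fit of 12 libraries each called 1 higher. Of 12 tested pigment genes 2 were called, *st* and *bw*, which encode partners of White in the transporters that carry eye pigment precursors. *st* was at 18.8, 22.8 and 25.6 CPM in BUT+ and 16.8, 17.6 and 14.1 CPM in the control, with every BUT+ library above every control library (log2 fold change 0.47, standard error 0.10, edgeR adjusted p = 0.0115). *bw* was at 42.7, 44.7 and 41.4 CPM in BUT+ and 36.5, 34.5 and 27.3 CPM in the control, again without overlap (log2 fold change 0.39, standard error 0.10, edgeR adjusted p = 0.0464), and lost its call without BUT+ lines 1 and 2 and without control line 3, at 0.27 to 0.39 (edgeR adjusted p = 0.108 to 0.246). Photoreceptor markers gave no call by edgeR or DESeq2 among 12, with 2 at an unadjusted p under 0.05, a median of 0.02 and summed levels of 60800 to 63410 CPM in BUT+ and 56700 to 75560 CPM in the control.

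Surface proteins of neurons gave 2 genes lower in BUT+ among 45 tested members of the Dpr, DIP, Beat and Side families, which match partner neurons during wiring. That is 4.44% called, beside 2.99% of all genes tested. Line means did not overlap in 3, or 6.67%, beside 17.3% of all genes tested, and the list median was -0.02. *DIP-alpha* was at 6.79, 7.25 and 7.62 CPM in BUT+ and 12.3, 9.25 and 12.1 CPM in the control (log2 fold change -0.63, standard error 0.13, edgeR adjusted p = 0.011), with overlap of single libraries. *DIP-epsilon* was at 30.3, 30.4 and 29.8 CPM in BUT+ and 41.1, 33.7 and 37.1 CPM in the control, without overlap (log2 fold change -0.30, standard error 0.08, edgeR adjusted p = 0.0356). It lost its call without any 1 of the BUT+ lines and without control line 1, at -0.31 to -0.23 (edgeR adjusted p = 0.103 to 0.278). *alrm*, a marker of astrocytes, was called among 10 glial markers, at 164, 149 and 141 CPM in BUT+ and 169, 186 and 181 CPM in the control (log2 fold change -0.24, edgeR adjusted p = 0.0658), and was called only without BUT+ line 1 when a line was left out, with -0.28 to -0.19 in the other fits (edgeR adjusted p = 0.11 to 0.239). That single call made 10% of the glial list, beside 2.99% of all genes tested. The sum of 11 glial markers was 3211 to 3512 CPM in BUT+ and 3254 to 3522 CPM in the control. The 13 neuronal markers, 26 genes of synaptic vesicle release, 23 of olfactory learning and cyclic AMP signaling, 28 neuropeptides, 9 nicotinic receptors and 16 clock genes held no call by edgeR, with list medians between -0.11 and 0.02. An unadjusted p under 0.05 was found in 1, 1, 2, 2, 0 and 2 of them in that order, and DESeq2 called 1 gene, of synaptic vesicle release. The fit of 12 libraries called 2 neuropeptides, 1 gene of olfactory learning and 1 clock gene.

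Markers of the fat body gave 1 call, and most of them lay on the side of higher values in BUT+. Of 11 tested markers 9 had a log2 fold change above 0, with a median of 0.52 and with 0.59, 0.51 and 0.47 in lines 1, 2 and 3. Line means did not overlap in 8, or 72.7%, beside 17.3% of all genes tested. The called member was *Lsp1beta*, which made 9.09% of the list called beside 2.99% of all genes tested. *Yp2*, a yolk protein made in the female fat body, was at 37190, 31990 and 33340 CPM in BUT+ and 16810, 22750 and 21760 CPM in the control, and no library overlapped, although the difference of 0.74 did not pass the test (standard error 0.28, edgeR adjusted p = 0.191). *Yp1*, of the same family, was at 16390, 15310 and 15360 CPM in BUT+ and 9820, 12030 and 10870 CPM in the control (log2 fold change 0.52, edgeR adjusted p = 0.317). Summed over 13 listed markers, the level was 85730 to 112100 CPM in BUT+ and 50670 to 84400 CPM in the control, and 23690 to 102000 CPM over the other 3 selected treatments. The median sum was 93410 CPM in BUT+, 56320 in the control, 79210 in BUT-, 36190 in CYC+ and 52400 in CYC-. The part of fat body RNA in the other differences was not tested.

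Markers of the midgut, which a clean head should lack, were low and variable. Of 8 tested 2 were above 0, with a median of -0.80, 1 at an unadjusted p under 0.05 and no call by edgeR or DESeq2, and the sum over 11 listed markers was 403 to 476 CPM in BUT+ and 371 to 679 CPM in the control. Without control line 2 the median was -0.26. Haemocyte, muscle and antennal support cell markers gave no call among 9, 15 and 13 tested genes, with medians of 0.10, 0.00 and -0.03 and with 1, 2 and 3 at an unadjusted p under 0.05. Antimicrobial peptides, serpins, heat shock proteins and lipid storage genes gave no call among 28, 15, 9 and 24 tested genes, with medians of -0.04, 0.05, 0.03 and 0.10 and with 4, 1, 0 and 4 at an unadjusted p under 0.05. DESeq2 called 1 antimicrobial peptide and no gene of the other 6 lists. The fit of 12 libraries called 4 antimicrobial peptides, 1 serpin and 2 lipid storage genes higher and 1 antennal support marker lower.

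Line by line, each BUT+ line was set against the mean of the 3 control lines. These 3 comparisons share their control libraries, and their p-values measure only the spread between both libraries of a line. Line 1 gave 274 genes higher and 261 lower (5.79% of the genes tested), line 2 gave 106 higher and 89 lower (2.11%), and line 3 gave 143 higher and 141 lower (3.07%). *f* was lower in each line, at -1.46, -1.52 and -1.76 on the log2 scale, as was *CG6071*, at -1.24, -1.88 and -1.90. The single lines called 4, 0 and 0 proteasome subunits. Median log2 fold changes of whole lists varied by line as well. The odorant receptors had -0.27, -0.05 and -0.10 in lines 1, 2 and 3.

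**Figure D3:**
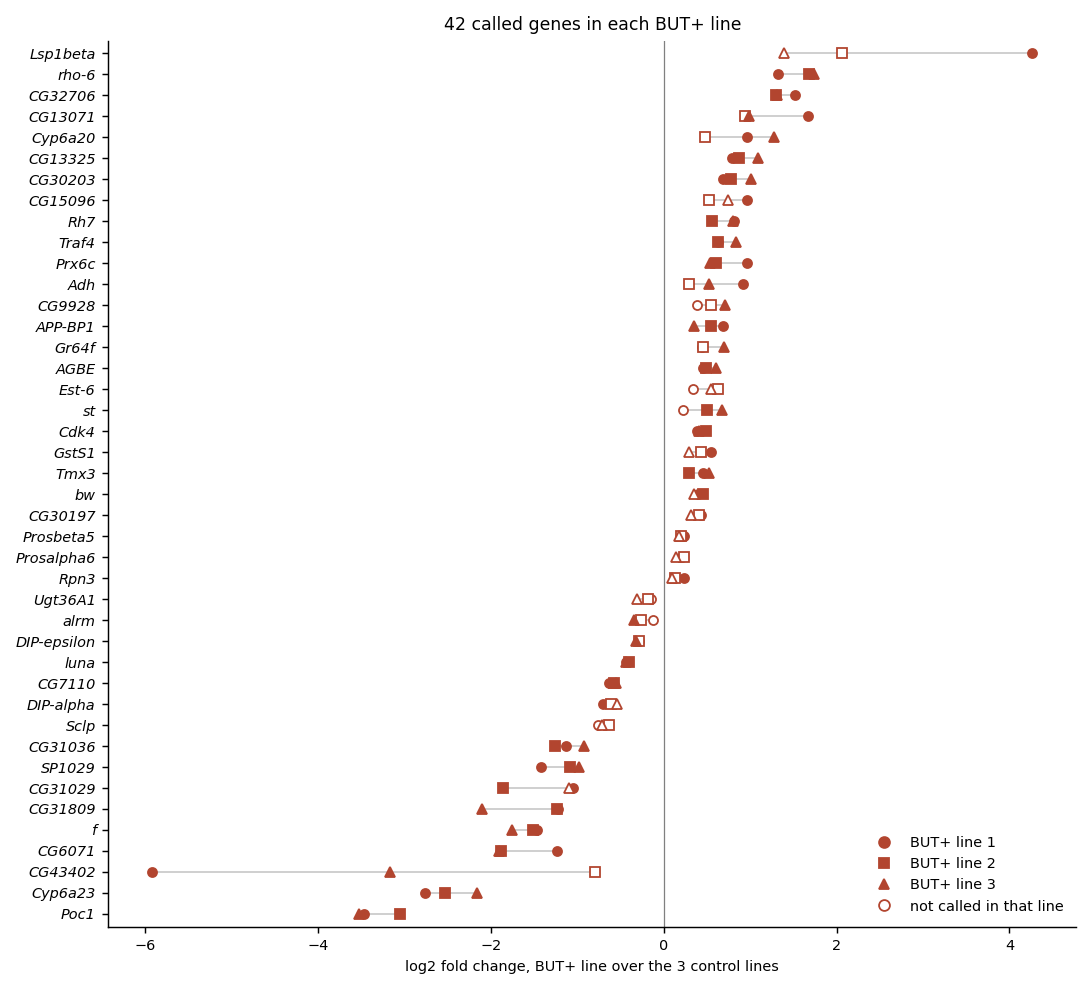
Log2 fold change of each BUT+ line against the mean of the 3 control lines (x axis) for genes called in the pooled comparison (rows). Each marker shape is 1 BUT+ line, filled where that line was called. For *Cyp6a23* the lines sit at -2.76, -2.54 and -2.16, and for *Lsp1beta* they spread over 4.27, 2.07 and 1.39.

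Set against the other BUT+ lines instead, line 1 differed in 174 genes (1.88%), 88 higher and 86 lower, 48 of them by at least 1 on the log2 scale. Line 2 differed in 22 (0.238%) and line 3 in 48 (0.519%). A departure of 1 line enters all 3 of these contrasts. The smallest adjusted p belonged to *sordd2* on the X chromosome (15796908 to 15799162). Both libraries of BUT+ line 1 held 2 reads each, while the other BUT+ libraries held 960 to 2476 reads and the control libraries 1311 to 2540. In CPM this was 0.0728 in line 1, 41.2 in line 2 and 76.0 in line 3, against 50.5, 66.3 and 52.1 in the control lines, and line 1 stood apart from the other BUT+ lines (edgeR adjusted p = 2.46e-12). CYC- line 3 was also near 0, at 0.31 CPM, and the other 8 lines of BUT-, CYC+ and CYC- were at 48.6 to 75.2 CPM. *CR44383*, the neighboring non-coding gene, was at 0.0731, 0.865 and 1.71 CPM in BUT+ lines 1, 2 and 3 and 1.496, 1.35 and 1.15 CPM in the control lines, and line 1 differed from the other BUT+ lines (edgeR adjusted p = 1.14e-06). Against the control lines, line 3 was at 0.37 on the log2 scale (edgeR adjusted p = 0.453).

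*CG6254* was at 27.1 CPM in BUT+ line 1 and 11.99 and 12.1 CPM in lines 2 and 3, against 11.9, 10.8 and 18.6 CPM in the control lines (1.17 for line 1 against the other BUT+ lines, edgeR adjusted p = 3.08e-08). *Hsc70-2*, of the Hsp70 chaperone family, was at 25.8 CPM in line 1 and 9.03 and 7.15 CPM in lines 2 and 3 (1.68, edgeR adjusted p = 3.08e-08), against 1.48, 15.2 and 10.8 CPM in the control lines, so control lines differed from one another as much as BUT+ lines did. *Ssk*, a component of smooth septate junctions of the gut, was at 32.1, 16.6 and 11.9 CPM in BUT+ lines 1, 2 and 3 and 29.5, 14.4 and 27.2 CPM in the control lines (1.20 for line 1 and -0.96 for line 3 against the other BUT+ lines, edgeR adjusted p = 5.32e-08 and 1.02e-05). *CG12112* was at 2.00 CPM in BUT+ line 1 alone, with 6.73 and 5.54 CPM in lines 2 and 3 and 7.31, 5.51 and 6.56 CPM in the control lines (-1.61 for line 1 against the other BUT+ lines, edgeR adjusted p = 1.52e-06). Line 2 against the other BUT+ lines, line 1 among them, gave 1.01 (edgeR adjusted p = 0.000591), and against the control lines 0.07 (edgeR adjusted p = 0.853).

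**Figure D4:**
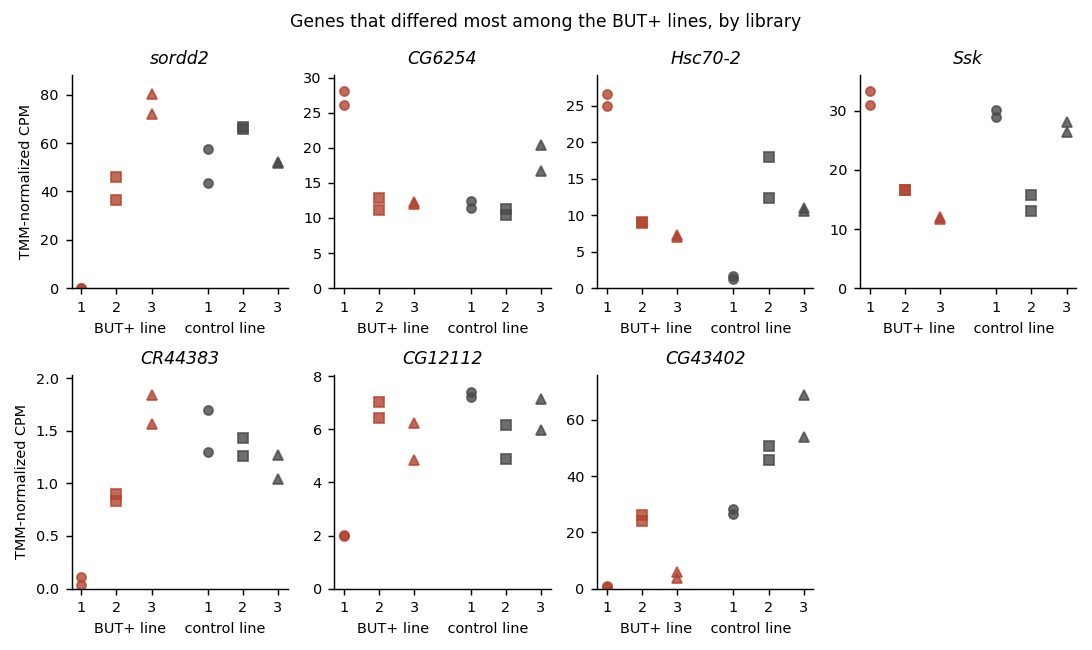
TMM-normalized CPM (y axis, linear from 0) of the genes that differed most between 1 BUT+ line and the other BUT+ lines. Each point is 1 library, and the x axis gives the line, BUT+ left of control. *sordd2* lies at 0.0728 CPM in BUT+ line 1 and between 41.2 and 76.0 CPM as the mean of every other BUT+ and control line.

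When the libraries of each line were summed, so that 3 BUT+ values met 3 control values, 10 genes were called. Among them were *Traf4* and *CG9928* (edgeR adjusted p = 0.00972 each), *f* (edgeR adjusted p = 0.0135) and *CG6071* (edgeR adjusted p = 0.0394). *CG9928* was at 277, 310 and 348 CPM in BUT+ and 201, 225 and 214 CPM in the control, without overlap of libraries (log2 fold change 0.55, standard error 0.13, edgeR adjusted p = 0.0265 with libraries kept apart). That call was lost without BUT+ line 3 and without control line 1, at 0.46 and 0.51. The others were *CG31809*, *CG31029*, *CG7110*, *CG30197*, *CG15096* and *Sclp*, with edgeR adjusted p between 0.0745 and 0.0847. *CG30197* was at 282, 276 and 260 CPM in BUT+ and 215, 221 and 191 CPM in the control, and *CG15096* at 299, 221 and 257 CPM in BUT+ and 143, 189 and 135 CPM in the control. *Sclp* was lower, at 9.60, 10.5 and 9.94 CPM in BUT+ and 22.0, 13.5 and 14.5 CPM in the control. With libraries kept apart, these 3 genes lost their calls in 3, 5 and 4 of the 6 fits that left out a line, at 0.32 to 0.40, 0.62 to 0.85 and -0.76 to -0.49 on the log2 scale.

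A difference between BUT+ and control may set BUT+ apart from all other treatments, or the control from all selected lines. Over the 141 genes higher in BUT+, BUT+ had the highest of the 5 treatment means in 107 and the control the lowest in 94, and both held in 64. Over the 135 lower genes, BUT+ was the lowest in 98 and the control the highest in 94, with both in 65. Over all genes tested, BUT+ was at either end of the 5 means in 3764 and the control in 3601. These totals are no baseline for the called genes, which were chosen for a difference between the same BUT+ and control means. That choice alone favors BUT+ and the control at opposite ends, so the counts do not show how many calls are of either kind. *f* was of the second kind, at 1.98 CPM in BUT+, 2.40 in BUT-, 2.96 in CYC+, 2.30 in CYC-, against 5.93 in the control, and BUT+ did not differ from the other 3 selected treatments past the threshold (-0.36, edgeR adjusted p = 0.12). *Traf4* was highest in BUT+ and lowest in the control, with 17.2 CPM in BUT+, 11.9 in BUT-, 13 in CYC+, 12.4 in CYC-, against 10.5 in the control. *Cyp6a23* was at 23.6 CPM in BUT+, 34.3 in BUT-, 184 in CYC+, 66.6 in CYC-, against 134 in the control. Its lines lay far apart within the other selected treatments, at 17.12, 62.88 and 22.85 CPM in BUT- and 240, 30.6 and 280 CPM in CYC+. The CYC- lines were at 20.5, 63.3 and 116 CPM.

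**Figure D5:**
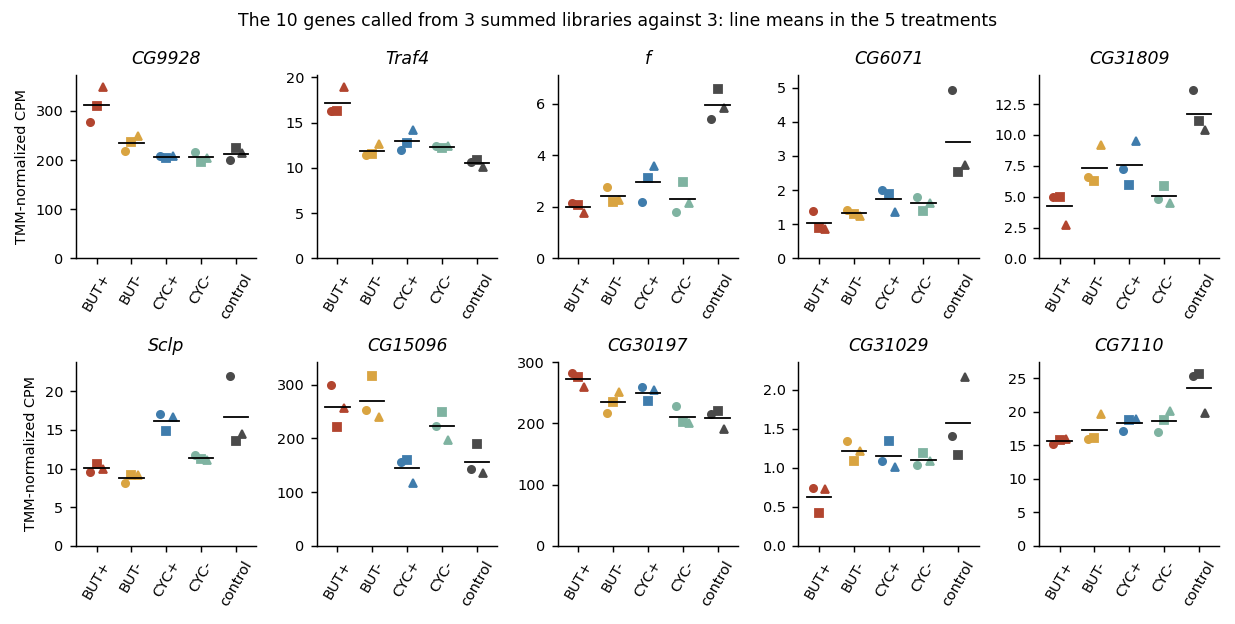
TMM-normalized CPM (y axis, linear from 0) of genes called with the libraries of each line summed, in the 5 treatments. Points are line means and bars the mean of 3 lines, with BUT+ at the left and control at the right. For *f* the control mean of 5.93 CPM lies above all 4 selected treatments, and for *CG9928* the BUT+ lines lie above the rest.

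Against the mean of the other 3 selected treatments, BUT+ differed in 719 genes (7.78%), 433 higher and 286 lower. The largest of the named differences was *Lsp1beta*, 4.15 higher on the log2 scale in BUT+ (edgeR adjusted p = 0.000835). *CG9928* was 0.53 higher (edgeR adjusted p = 0.00453), *Traf4* 0.47 higher (edgeR adjusted p = 6.62e-05), *rho-6* 1.07 higher (edgeR adjusted p = 0.00667) and *SP1029* 1.20 lower (edgeR adjusted p = 0.00143). In *rho-6* and *SP1029* BUT- lay nearer to BUT+ than CYC+ and CYC- did. *rho-6* was at 3.43 CPM in BUT+, 2.48 in BUT-, 1.35 in CYC+ and 1.37 in CYC-. *SP1029* was at 168 CPM in BUT+, 216 in BUT-, 479 in CYC+ and 555 in CYC-. Of the fat body markers 7 of 11 were higher and of the proteasome subunits 11 of 32, with list medians of 0.82 and 0.09 beside -0.02 over all genes tested. *Yp2* was among them (0.97, edgeR adjusted p = 0.0113), as was *Aldh* (0.38, edgeR adjusted p = 0.00454). The median fat body sum of BUT-, at 79210 CPM, lay nearer to the 93410 CPM of BUT+ than CYC+ and CYC- did, at 36190 and 52400 CPM. Without BUT+ line 1, 2 and 3 this comparison called 265, 310 and 330 genes.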

How the data were processed

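The deposited values were the authors' whole-number read counts per gene, neither normalized nor filtered, 1 list of 17471 genes per library. Per the labels and methods, total RNA of whole heads was sequenced on a HiSeq instrument, and the authors trimmed reads with Trim Galore and cutadapt and aligned them by STAR to release 6 of the genome. The counting tool and the use of strand are not given in the sources used here. Heads were collected over several days in random order, with no batch in the labels. Genes with at least 1 CPM in 15 of 30 libraries were fitted in edgeR 4.0.16 (R 4.3.3), with TMM normalization and 5 treatment means over all 30 libraries, and called at an adjusted p under 0.1. A second fit with 15 line means gave the contrasts of single lines. A standard error here is the log2 fold change over the root of the F statistic. CPM values are TMM-normalized, averaged over both libraries of a line. A gene at 1 CPM had about 21.2 reads in the smallest library, and the number of lines, 3 per treatment, limits the precision. Labels number lines and samples but do not say that libraries of a line came from separate cultures.

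The 9240 genes tested, the gene lists and the rule for named genes were chosen with earlier results of these data known. The rule took, per direction, the 8 called genes with the smallest adjusted p and the 4 with the largest change among those whose line means did not overlap. It also took genes called with summed libraries, up to 3 called genes per list, *Orco*, *Or92a*, *Gr21a* and *Gr63a*, and 3 genes per line comparison. List members and neighbors named beyond it, such as *Cyp6a2*, *Or22b* and *CAH2*, were chosen after their values were seen. Alternatives used DESeq2 1.42.0, limma 3.58.1 with voom, relative log expression size factors, other filters, tests and thresholds, the 12 libraries alone, replicate blocks, single samples and each line left out. The fit was tested on simulated data. Gene positions were matched by identifier to a release 6 annotation for 98.7% of genes.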

Additional observations from a re-analysis of the deposited data

Results flagged for a closer look

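In 110 sets of 6 libraries tested, 5 held a library far from the others, where chance alone marks about 1 in 20 sets. *Lsp1beta* was at 417 CPM in its highest BUT+ library, of line 1, with the next at 175 CPM. *Gr64f* was at 3.48 CPM in its highest BUT+ library, of line 3, with the next at 2.80 CPM. *CG31029* was at 0.227 CPM in its lowest BUT+ library, of line 2, with the next at 0.611 CPM. *CG15096* was at 269 CPM in its highest control library, of line 2, with the next at 159 CPM. *CG32706* was at 0.345 CPM in its lowest control library, also of line 2, with the next at 0.605 CPM.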

How the results depend on the processing

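The number of genes called in BUT+ against control, 276, became 422 with DESeq2, 589 with only the 12 libraries compared, 10 with the libraries of a line summed, 147 with limma voom and line as a random block, 2 with only the first sample of each line, 7 with only the second, and 149 at an adjusted p under 0.05. Leaving out 1 line gave 65 to 409. DESeq2 called 274 of the 276 genes, and without control line 1, 63 of them were called. Against the other 3 selected treatments, 719 became 459 with limma voom and 417 at an adjusted p under 0.05, and 265 to 330 without a BUT+ line. At an adjusted p under 0.05, BUT+ line 1 and line 2 against the control lines gave 299 and 110 genes, and line 2 against the other BUT+ lines gave 9.

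Same-numbered lines did not deviate together (correlations across genes of -0.14, -0.18 and 0.05 in lines 1, 2 and 3). Between BUT+ and control samples of the same number the correlation was 0.16. This is 1 value for both sample numbers, since deviations from a treatment mean make sample 2 the mirror image of sample 1. With line and sample number as a replicate block, 430 genes were called against control and 1143 against the other 3 selected treatments, with line number alone 299 and with sample number alone 388.

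All 42 named genes called against control kept their direction under every alternative, and 21 kept their call in all 6 fits that left out a line. Calls were lost for 18 of them without control line 1, 16 without control line 3 and 16 without BUT+ line 1. Only *Gr21a*, at -0.015 without BUT+ line 1 and up to 0.37 without control line 1, and *Orco*, at -0.0033 without BUT+ line 3 and up to 0.17 without BUT+ line 1, changed sign when a line was left out, and neither was called. Single samples and summed libraries gave 15 values in place of 30. For the other settings the cause of the change was not tested.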

Other observations

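Called genes were found on every large chromosome arm, with 2.65% of the tested genes on 2L, 3.27% on 2R, 3.55% on 3L, 2.09% on 3R and 3.86% on the X chromosome called between BUT+ and control, and 0 of 82 on chromosome 4. Among 9103 pairs of tested genes next to each other, the first was called in 271 and both in 18, and in 11 of these 18 in the same direction. Over all genes tested, 2.99% were called. *Rh7* and its neighbor *CAH2*, a carbonic anhydrase, were higher in BUT+ by 0.70 and 0.31 on the log2 scale (edgeR adjusted p = 0.00587 and 0.021). *APP-BP1* and its neighbor *emei* were higher by 0.53 and 0.22 (edgeR adjusted p = 0.00388 and 0.0265). *mnd*, an amino acid transporter, and *Zip71B*, a zinc transporter, were lower by 0.23 and 0.41 (edgeR adjusted p = 0.00752 and 0.0107). Neighboring and overlapping genes can share reads where strand is not used in counting, and their part in these pairs was not tested.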
